A study of Mus musculus with 4 samples.

Results

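The Zfp genes are the mouse genes named zinc finger protein with a number, and 247 of the 374 genes with such a symbol in the count tables were described here. They were chosen by symbol and by a sum of at least 200 reads over both whole-cell libraries, AF357425-High and AF357425-Low. The sum favours neither state, and the remaining 127 genes fell under it. Just inside the floor were Zfp2 with 203, Zfp54 with 204 and Zfp825 with 206 whole-cell reads, and just outside it were Zfp763 with 192, Zfp759 with 198 and Zfp580 with 199. The cells were primary fibroblasts from ears of C57BL/6 mice, held with the kinase inhibitor KN93 for 48 h and transfected for 24 h. AF357425, which the study manipulated, is a C/D box small nucleolar RNA encoded in the imprinted Dlk1-Dio3 region, whose human counterpart is SNORD113-6. There were 4 groups of 1 library each: RNA from a fibrillarin pulldown of AF357425-High cells, RNA from a fibrillarin pulldown of AF357425-Low cells, whole-cell RNA of AF357425-High cells and whole-cell RNA of AF357425-Low cells. All groups shared the KN93 step. Whether any libraries share a culture or a mouse is not stated. The labels name overexpression for AF357425-High and inhibition for AF357425-Low but also gapmers, antisense oligonucleotides, against AF357425 or a scrambled control, so what was transfected into the cells of a given group is not known here.

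Most Zfp proteins carry C2H2 fingers, small folds held by a zinc ion that read DNA and in some members bind RNA. Many belong to the KRAB zinc finger family, whose repressor domain recruits the co-repressor Trim28 and, through it, the histone methyltransferase Setdb1, and which is best known for silencing retroelements and keeping imprints. These genes arose largely by tandem duplication and lie in chromosomal clusters. Fibrillarin is the methyltransferase that C/D box small nucleolar RNAs guide to ribosomal and other RNAs.

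Gene-assigned reads came to between 21693030 and 27832061 per library. Mitochondrial ribosomal RNA was 63.4% of the AF357425-High and 59.8% of the AF357425-Low pulldown, against 0.0926% of AF357425-High and 0.0583% of AF357425-Low whole-cell RNA. Fibroblast markers were present (7 of 7 in the table, 6 of 7 over the floor), and the melanocyte markers Mlana, Dct and Tyr had 0 reads in whole-cell RNA. Keratinocyte markers summed to at most 0.507 CPM (counts scaled to 1e6 gene-assigned reads) in any library. Macrophage and leukocyte markers summed to 5.71 CPM in AF357425-High and 5.49 CPM in AF357425-Low whole-cell RNA, with 71 and 56 reads of Cd68 and 52 and 50 of Csf1r. In the same libraries endothelial markers summed to 1.13 and 1.71 CPM and skeletal muscle markers to 2.31 and 2.30 CPM. The chondrocyte markers Col2a1, Acan, Cnmd and Sox9 summed to 262 CPM in AF357425-High and 185 CPM in AF357425-Low whole-cell RNA. Sox9 held 169 and 148 CPM of these sums and was not called. Col2a1, the main cartilage collagen, was called higher, with 1922 and 766 reads and a log2 ratio of 1.24 (1.12 to 1.37), and so was Cnmd, with 99 and 14 reads and 2.74 (1.92 to 3.66). Their part in the Zfp values was not tested, and in bulk RNA fewer cells of a type and less RNA per cell cannot be told apart. With 1 library per group no difference has a replicate check, and intervals hold the error of counting alone, as PCR copies are not told apart without molecular identifiers.

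Of the 247 members, 246 matched RefSeq by symbol, 245 were protein coding, 63 lay on chromosome 7 and 31 on chromosome 17. The median genomic span was 19.4 kb, against 26.1 kb for the 10460 genes of any kind with at least 200 whole-cell reads, which serve as the background throughout. The span of 85 members overlapped another gene, a share of 34.6%, against 47.9% of the background. Reads of such genes are uncertain, because the strand setting of the counting is not given. Zfp genes of a cluster also share sequence, so reads may be split or lost between close copies. Coordinates are those of RefSeq on GRCm38.p6. For 202 members a window of the 250 bases before an annotated start was at hand. That start was not always the start of the gene's span: the window of Zfp638 lies inside its span, chr6:83867068-83986871. These windows had a median GC content of 54.6%, against 60.8% in the background genes with a window, and a median of 12 CpG sites, against 17.

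The letters ACTACA and TCCC with any 2 bases between them, the core of the element bound by ZNF143, the human counterpart of Zfp143, were found on either strand in 30 of the 202 windows, a share of 14.9%, against 4.65% of the background windows and 1.81% of all 27025 promoters in the RefSeq table. The motif was chosen after promoter sequences had been seen. Of these 30 members, 20 lay in one of the clusters described further on, as did 79 of the 202 members with a window. Clustered genes can share promoter sequence: on chromosome 13 the matches of Zfp458, Zfp595, Zfp738 and Zfp748 were all followed by acaagtc. The 30 matches are therefore not independent of each other. The next lines show the 8 matches with the most whole-cell reads among those with room on both sides, because a larger share of member windows than of background windows held this motif, although most member windows did not. Each line has 40 bases, written 5′ to 3′ along the motif with the motif in capitals.
Zfp260, chr7:30095033-30095072: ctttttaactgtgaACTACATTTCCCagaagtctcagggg
Zfp317, chr9:19621853-19621892: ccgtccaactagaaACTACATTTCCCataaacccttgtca
Zfp146, chr7:30169846-30169885: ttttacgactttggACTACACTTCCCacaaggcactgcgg
Zfp334, chr2:165388352-165388391: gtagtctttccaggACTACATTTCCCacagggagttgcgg
Zfp738, chr13:67683543-67683582: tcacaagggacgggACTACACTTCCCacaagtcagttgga
Zfp111, chr7:24208188-24208227: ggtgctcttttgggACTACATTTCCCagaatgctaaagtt
Zfp790, chr7:29815954-29815993: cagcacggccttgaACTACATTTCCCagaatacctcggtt
Zfp74, chr7:29954091-29954130: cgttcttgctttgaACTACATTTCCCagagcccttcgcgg
A match is a description of letters and not a binding site. The CCAAT letters, also searched on both strands, were in 47.5% of member windows, against 36.6% of background windows. The Ets-type letters CCGGAAG were in 18.3%, against 15.4%. The letters TGACGTCA (1.98%, against 2.92%), AAGATGGC (1.49%, against 2.13%) and the interferon-type pair of GAAA with any 2 bases between (2.97%, against 2.35%) were rare in both.

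Zfp transcripts made up a smaller share of pulldown RNA than of whole-cell RNA by library totals. Members summed to 71668 reads in the AF357425-High pulldown, 0.277% of gene-assigned reads (exact 95% interval 0.275% to 0.279%), and to 107746 reads in the AF357425-Low pulldown, 0.387% (0.385% to 0.389%). In whole-cell RNA they summed to 168374 reads in AF357425-High, 0.762% (0.759% to 0.766%), and to 150405 reads in AF357425-Low, 0.693% (0.690% to 0.697%). The AF357425-High library was thus the lower of the pulldowns and the higher of the whole-cell libraries. Without mitochondrial ribosomal RNA in the totals the shares were 0.758% and 0.963% in the pulldowns of AF357425-High and AF357425-Low, and 0.763% and 0.694% in the whole-cell libraries. The median member had 134 and 220 reads in the AF357425-High and AF357425-Low pulldowns, against 397 and 341 in the whole-cell libraries. In the AF357425-High pulldown 10 members had under 10 reads, and in the AF357425-Low pulldown 4 did. Read counts grow with transcript length, so levels are not compared between genes.

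Whole-cell RNA of AF357425-High was set against that of AF357425-Low to ask how Zfp messages differ between the states of the snoRNA. Zfp genes lay slightly above other genes in AF357425-High whole-cell RNA, as many small shifts and no large one. The median log2 ratio of the members was 0.14, and the middle 50% ran between 0.00 and 0.27, against a median of -0.00 for the background. Of the members, 186 were above 0, a share of 75.3%, against 49.9% of the background. None was called higher or lower, a call meaning that the whole 95% interval lay beyond 2-fold, and in the background 0.0765% were called in each direction. The interval lay wholly above equality for 90 members (36.4%), against 21.7% of the background, and wholly below for 7 (2.83%), against 22.8%. All members lay between -0.40 and 0.78, and 98.0% lay within 1.5-fold.

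Zfp944 (ENSMUSG00000033972, chr17:22337983-22361428), chosen like the others of this paragraph after its values were seen, had the highest whole-cell ratio. It had 267 whole-cell reads in the AF357425-High cells and 147 in the AF357425-Low cells, and 119 and 156 reads in the pulldowns of the same states, and its whole-cell ratio was 0.78 (0.48 to 1.08). Zfp758 had 226 and 131 whole-cell reads in AF357425-High and AF357425-Low, a ratio of 0.70 (0.39 to 1.03), and Zfp942 had 442 and 278, a ratio of 0.59 (0.37 to 0.81). These 3 genes lie in the same cluster of chromosome 17. At the other end, Zfp651 had 793 and 989 reads, a ratio of -0.40 (-0.54 to -0.27), and Zfp827 had 464 and 574, a ratio of -0.39 (-0.57 to -0.21). The other members whose interval lay wholly below equality were Zfp219, Zfp365, Zfp462, Zfp646 and Zfp703.

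The offset was larger among members with few reads. With the members split into 3 nearly equal groups, the median whole-cell ratio was 0.21 over the 83 members with 203 to 445 whole-cell reads, 0.15 over the 81 with 457 to 1038 and 0.09 over the 83 with 1045 to 13968. The background genes in the same ranges had medians of -0.01, -0.01 and 0.01. Members without an overlapping gene had a median of 0.16 and those with one had 0.07. The median was 0.15 for members with a span under the members' median and 0.12 for the rest.

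The 8 members with the most whole-cell reads were Zfp106, Zfp462, Zfp703, Zfp207, Zfp521, Zfp91, Zfp266 and Zfp871. Zfp106, an RNA-binding protein needed for motor neuron and muscle upkeep, had 7146 whole-cell reads in the AF357425-High cells and 6822 in the AF357425-Low cells, and 3462 and 4038 reads in the pulldowns of the same states. Its ratios were -0.02 (-0.06 to 0.03) in whole-cell RNA and 0.19 (0.12 to 0.25) in the pulldown, so its levels were close in both states. Zfp462, a chromatin-linked factor, had 3870 and 4337 whole-cell reads and ratios of -0.25 (-0.31 to -0.18) and, in the pulldown, -0.42 (-0.52 to -0.32). Zfp266 had 3176 and 2547 whole-cell reads and a ratio of 0.24 (0.16 to 0.31). Zfp871 lay above equality in whole-cell RNA and below it in the pulldown. It had 3115 and 2562 reads in whole-cell RNA, a ratio of 0.20 (0.12 to 0.28), and 1696 and 3403 reads in the pulldowns, a ratio of -0.59 (-0.68 to -0.51). The other 4 had whole-cell ratios between -0.09 and 0.09 and pulldown ratios between -0.37 and 0.26.

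The pulldowns of the states were compared to ask whether Zfp messages found in the fibrillarin pulldown differ. Here the Zfp genes lay below other genes. The median log2 ratio was -0.24, against -0.01 for the background, and 170 of 247 members were below 0, a share of 68.8%, against 50.5%. With members split by whole-cell reads as above, their pulldown medians were -0.37, -0.23 and -0.16, from the fewest reads to the most. Background genes in the same read ranges had medians of -0.17, -0.10 and 0.02. The background was thus itself lower at fewer reads, and the members lay below it in each range. Called lower were 6 members (2.43%), against 2.3% of the background, and called higher were 2 (0.810%), against 2.44%, so the share of lower calls was close to that of all genes. Scaled by library totals, which shift every pulldown ratio by -0.30, 17 members (6.88%) were called lower, against 4.97% of the background, and 0 higher, against 1.35%. The interval lay wholly below equality for 111 members (44.9%), against 31.1% of the background, and wholly above for 37 of 247, against 30.9%. At a line of 1.5-fold in place of 2-fold, 8 members were higher, against 6.67% of the background, and 21 lower, against 6.81%. In the same comparison interferon-response genes read beside it were called higher, among them Cxcl10 with 4301 reads in the AF357425-High and 259 in the AF357425-Low pulldown and Isg15 with 2985 and 528. The nuclear RNA Malat1 was called higher too, with 28571 and 11031 pulldown reads and a ratio of 1.78 (1.75 to 1.82), while its whole-cell ratio was -0.57 (-0.58 to -0.56), and Neat1 had 0.96 (0.86 to 1.05) and 0.39 (0.37 to 0.41). The 6 fibroblast markers over the floor, with none called, had medians of 0.18 in the pulldown and -0.27 in whole-cell RNA, the opposite signs to the members' medians. They were mixed: in whole-cell RNA 4 lay wholly below equality, but Pdgfra at 0.21 (0.17 to 0.26) and Thy1 at 0.09 (0.05 to 0.14) lay above it. In the pulldown 4 lay wholly above equality, and Thy1 had -0.06 (-0.13 to 0.01). The part of these genes in the Zfp values was not tested.

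Among the members called lower, Zfp563 and Zfp709 were those with no overlapping gene and at least 30 reads in each pulldown. The interval of Zfp709 came nearest to the 2-fold line of all lower calls. Zfp563 (ENSMUSG00000067424, chr17:33089367-33110707) had 30 reads in the AF357425-High and 254 in the AF357425-Low pulldown, against 137 and 124 reads in whole-cell RNA of the same states. The AF357425-High pulldown was the low library of the 4, and the whole-cell libraries were close to each other. The pulldown ratio was -2.67 (-3.27 to -2.12) and the whole-cell ratio 0.06 (-0.30 to 0.42). Zfp709 (ENSMUSG00000056019, chr8:71882068-71892565) had 233 and 748 pulldown reads and 383 and 300 whole-cell reads in AF357425-High and AF357425-Low. Its pulldown ratio was -1.27 (-1.49 to -1.06) and its whole-cell ratio 0.27 (0.05 to 0.49), so its AF357425-High value was above the AF357425-Low value in whole-cell RNA and below it in the pulldown.

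The other lower calls rested on fewer reads or on overlapping genes. Zfp775 (ENSMUSG00000007216, chr6:48602007-48621548) had 5 and 55 reads in the AF357425-High and AF357425-Low pulldowns, with 144 and 104 in whole-cell RNA, and a pulldown ratio of -3.05 (-4.73 to -1.74). Zfp954 (ENSMUSG00000062116, chr7:7114683-7121476) had 4 and 35 pulldown reads, with 204 and 135 in whole-cell RNA, and a ratio of -2.72 (-4.67 to -1.23). Zfp286 (ENSMUSG00000047342, chr11:62751951-62789506) had 6 and 51 pulldown reads, with 128 and 85 in whole-cell RNA, and a ratio of -2.68 (-4.19 to -1.46). All 3 had their fewest reads in the AF357425-High pulldown and their most in AF357425-High whole-cell RNA, with whole-cell ratios of 0.39 (0.01 to 0.76), 0.51 (0.19 to 0.84) and 0.51 (0.10 to 0.92). Zfp329 (ENSMUSG00000057894, chr7:12803778-12818895) had 107 and 387 pulldown reads, with 400 and 407 in whole-cell RNA, and a pulldown ratio of -1.44 (-1.77 to -1.13). Zfp775, Zfp286 and Zfp329 overlap another gene.

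The 2 members called higher in the AF357425-High pulldown were Zfp30, known in mice for an effect on the neutrophil chemokine Cxcl1, and Zfp820. Zfp30 (ENSMUSG00000047473, chr7:29783968-29794703) had 87 and 35 reads in the AF357425-High and AF357425-Low pulldowns and 144 and 145 in whole-cell RNA, with a pulldown ratio of 1.72 (1.14 to 2.33). Zfp820 (ENSMUSG00000069743, chr17:21816876-21845759), which overlaps another gene, had 131 and 61 pulldown reads and 142 and 114 whole-cell reads, with a pulldown ratio of 1.51 (1.06 to 1.98). With library totals in place of TMM scaling the ratios were 1.42 and 1.21 and neither was called. Zfp428 had the highest pulldown ratio but only 3 and 1 reads, and its interval ran between -1.64 and 7.71.

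**Figure D1:**
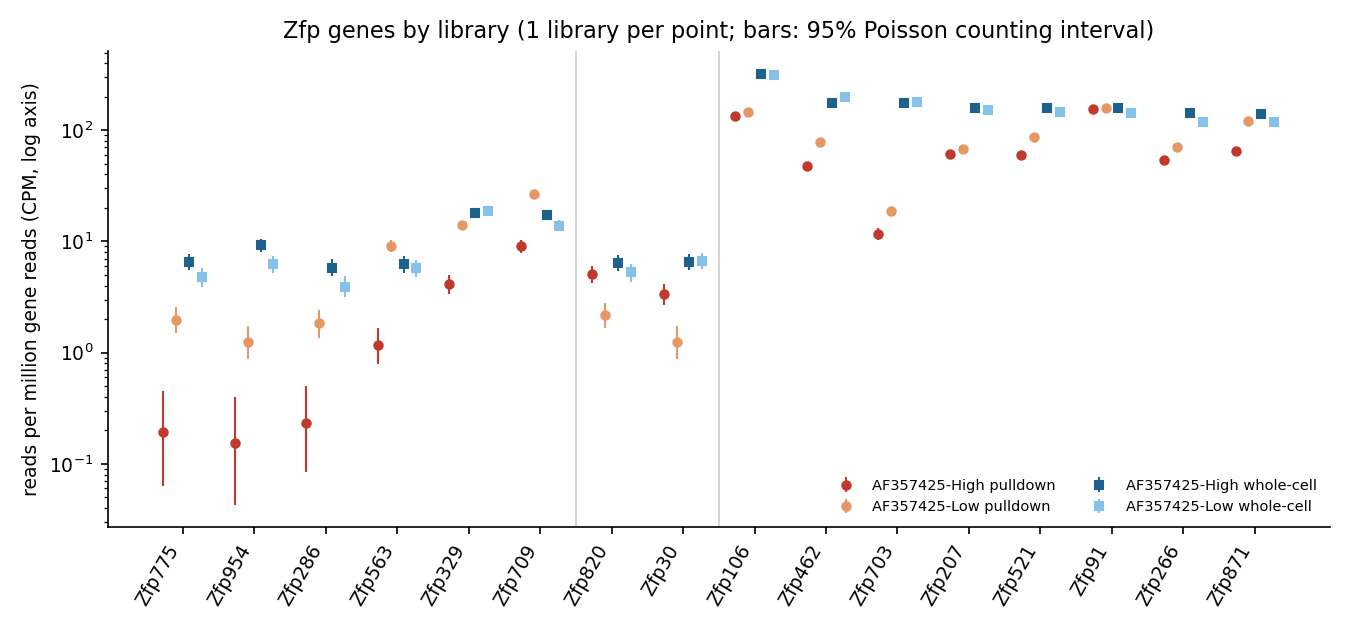
CPM (log axis) of the 6 members called lower, the 2 called higher and the 8 with the most whole-cell reads, from left to right. Each point is 1 library (for each state a pulldown, drawn as a circle, and whole-cell RNA, drawn as a square) and bars are 95% Poisson counting intervals: Zfp563 stands at 1.16 CPM in the AF357425-High pulldown, against 9.13 CPM in the AF357425-Low pulldown.

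The promoter windows of Zfp563 and Zfp709, called lower, and of Zfp820 and Zfp30, called higher, are shown so that members called in opposite directions in the pulldown can be set beside each other. Each has 250 bases before the start on the strand of the gene, with CCAAT (or ATTGG, its other strand) in capitals.
Zfp563, chr17:33089117-33089366, plus strand: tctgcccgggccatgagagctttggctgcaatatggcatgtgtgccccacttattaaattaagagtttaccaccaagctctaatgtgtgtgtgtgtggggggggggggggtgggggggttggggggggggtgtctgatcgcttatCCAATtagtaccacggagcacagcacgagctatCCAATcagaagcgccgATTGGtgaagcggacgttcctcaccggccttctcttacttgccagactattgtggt
Zfp709, chr8:71881818-71882067, plus strand: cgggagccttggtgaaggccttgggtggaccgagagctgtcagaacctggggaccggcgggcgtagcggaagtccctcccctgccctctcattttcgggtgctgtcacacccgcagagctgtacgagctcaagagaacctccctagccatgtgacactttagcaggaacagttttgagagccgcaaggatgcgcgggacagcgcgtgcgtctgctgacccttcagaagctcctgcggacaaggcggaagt
Zfp820, chr17:21845760-21846009, minus strand: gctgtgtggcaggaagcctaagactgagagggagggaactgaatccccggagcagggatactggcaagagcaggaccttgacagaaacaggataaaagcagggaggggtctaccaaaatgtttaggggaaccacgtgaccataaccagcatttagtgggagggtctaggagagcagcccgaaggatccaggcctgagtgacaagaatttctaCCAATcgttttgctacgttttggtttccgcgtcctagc
Zfp30, chr7:29783718-29783967, plus strand: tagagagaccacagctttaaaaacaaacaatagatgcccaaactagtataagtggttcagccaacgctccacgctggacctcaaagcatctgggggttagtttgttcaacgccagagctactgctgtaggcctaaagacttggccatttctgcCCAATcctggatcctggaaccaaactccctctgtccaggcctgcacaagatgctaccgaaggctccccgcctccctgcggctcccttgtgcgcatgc
Zfp563 held 3 CCAAT matches, Zfp820 and Zfp30 held 1 each and Zfp709 held 0. None of the 4 held the ZNF143 core or CCGGAAG. GC content was 55.2%, 61.6%, 52.4% and 53.2% in the order shown.

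**Figure D2:**
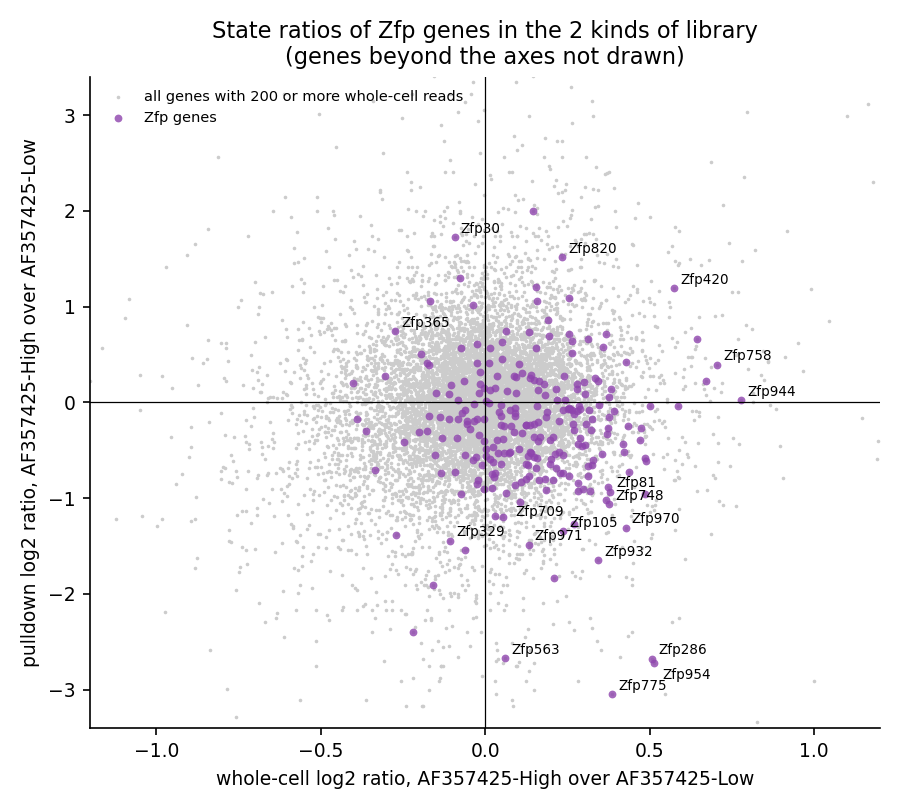
Log2 ratio of AF357425-High over AF357425-Low in whole-cell RNA (x axis) and in the fibrillarin pulldown (y axis) for the Zfp genes (purple) and the background genes within the axes (grey), 1 point per gene. The purple points lie mostly right of 0 and below 0, with Zfp775, Zfp954, Zfp286 and Zfp563 lowest and Zfp30 and Zfp820 among the highest.

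Set side by side, the state ratios of the members pointed in opposite directions more often than in one. Such counts in large part restate the separate shifts given above. Of the members, 75.3% were above 0 in whole-cell RNA and 68.8% below 0 in the pulldown. A whole-cell ratio above 0 with a pulldown ratio below 0 was found for 131 members (53.0%), against 23.9% of the background, and the reverse for 22 (8.91%), against 23.4%. Both ratios were above 0 for 55 members (22.3%, against 25.9%) and below 0 for 39 (15.8%, against 26.6%). With both intervals off equality, 40 members (16.2%) lay above it in whole-cell RNA and below it in the pulldown, against 6.24% of the background. The reverse held for 1 member (0.405%), against 6.55%. Both intervals lay above equality for 14 members (against 8.48%) and below it for 2 (against 8.08%). That member was Zfp365, a factor linked to genome stability in human cells. It had 1440 and 1144 reads in the AF357425-High and AF357425-Low pulldowns, a ratio of 0.74 (0.63 to 0.86), and 1131 and 1292 in whole-cell RNA, a ratio of -0.27 (-0.39 to -0.16). The 247 members share 4 libraries and are not independent. Across them Spearman's rho between the ratios was -0.0549, and across the background it was 0.0872. The joint counts thus do not show that a member higher in whole-cell RNA tends to be lower in the pulldown.

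**Figure D3:**
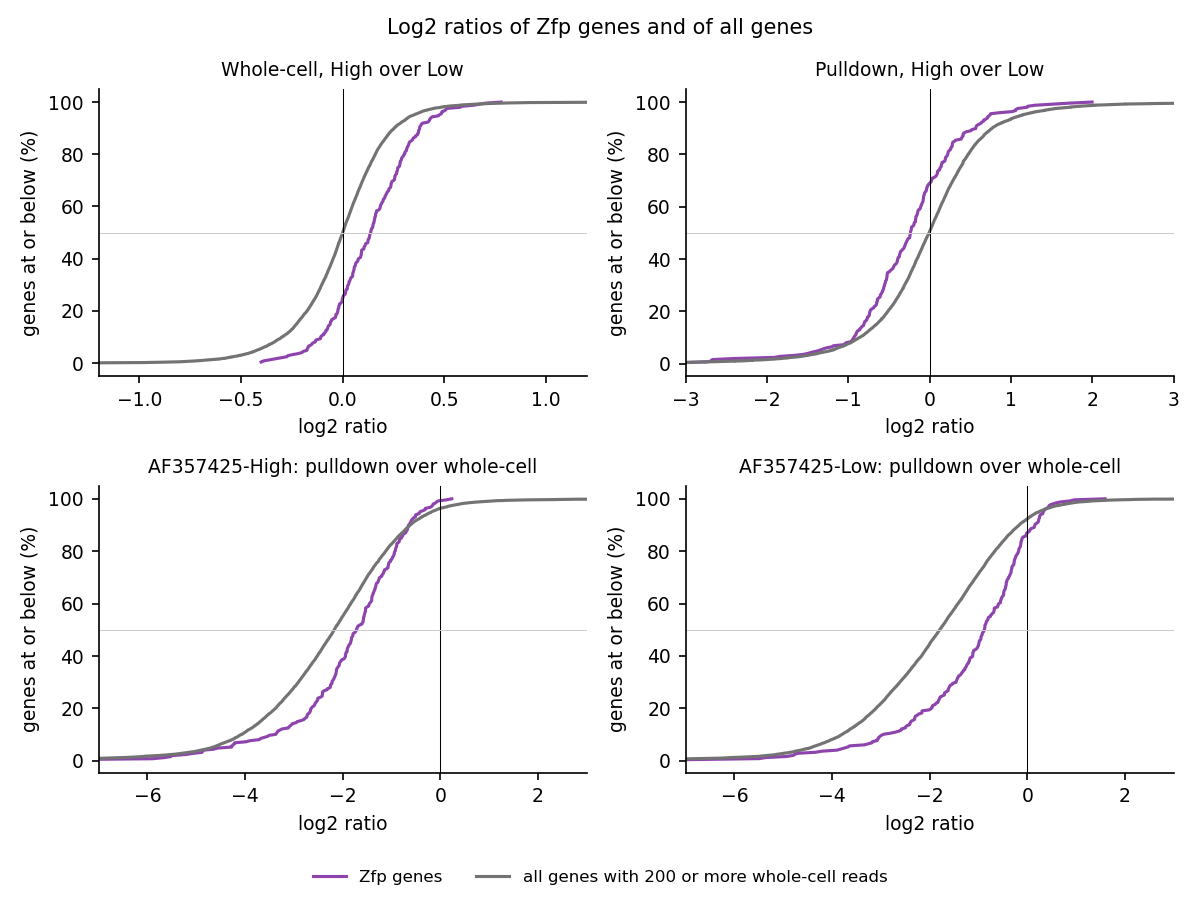
Share of genes (y axis, %) at or below each log2 ratio (x axis) for the 247 Zfp genes and for all genes with at least 200 whole-cell reads, in the whole-cell and pulldown comparisons of AF357425-High with AF357425-Low and in the pulldown over whole-cell comparison of each state. The Zfp curve lies right of the other at the median in whole-cell RNA (medians 0.14 and -0.00), left of it at the median in the pulldown (-0.24 and -0.01), and right of it at the median in both pulldown over whole-cell panels, where the curves cross at the top.

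The change of the pulldown ratio relative to the whole-cell ratio, the difference between the log2 state ratios, could be given for the 237 members with at least 10 reads in each library. Its median was -0.37, against -0.01 over 9998 background genes, and 176 members (74.3%) were below 0, against 50.4%. Split by whole-cell reads, from the fewest to the most, the members had median changes of -0.61, -0.40 and -0.30. Background genes in the same read ranges had -0.14, -0.07 and 0.01. Called lower were 8 members, against 1.46% of the background, and called higher was 1, against 2.27%. The interval lay wholly below equality for 128, against 29.7%, and wholly above for 28, against 29.8%. Beyond 1.5-fold were 31 lower, against 5.76%, and 5 higher, against 6.63%. The 8 were Zfp563 at -2.73 (-3.38 to -2.08), Zfp932, Zfp970, Zfp971, Zfp105, Zfp709, Zfp748 and Zfp81, and the member called higher was Zfp30 at 1.82 (1.16 to 2.47). None of these 9 overlaps another gene.

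Zfp932, a KRAB protein that represses endogenous retroviruses in mouse embryonic stem cells, had 23 and 96 reads in the AF357425-High and AF357425-Low pulldowns and 192 and 143 in whole-cell RNA, a change of -1.99 (-2.72 to -1.27). Zfp970 had 34 and 112 pulldown reads and 168 and 118 whole-cell reads, a change of -1.74 (-2.39 to -1.09). Zfp971 had 40 and 149 pulldown reads and 159 and 137 whole-cell reads, a change of -1.62 (-2.22 to -1.02). By library totals, the AF357425-High pulldown was the lowest library for these 3 genes and the AF357425-High whole-cell library the highest. The order of a pulldown and a whole-cell library can change with the scaling. Zfp105 had 83 and 280 pulldown reads and 201 and 161 whole-cell reads, a change of -1.58 (-2.04 to -1.12), and Zfp748 had 111 and 308 pulldown reads and 278 and 202 whole-cell reads, a change of -1.44 (-1.85 to -1.03). Zfp81 (ENSMUSG00000003929, chr17:33329342-33358896) had 331 and 840 pulldown reads and 299 and 217 whole-cell reads, a change of -1.31 (-1.62 to -1.0).

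The comparison of the pulldown with whole-cell RNA within a state asks which messages held a larger or smaller share of the pulldown. None of the 4 libraries is a control pulldown, so messages bound to fibrillarin cannot be told from messages carried along. By library totals, in which mitochondrial ribosomal RNA takes most of the pulldown reads, most genes lay below 0, and the median Zfp gene lay less far below than the median of all genes. In AF357425-High the median log2 ratio of the members was -1.71, against -2.18 for the background. Called lower were 167 members (67.6%), against 78.5%, and called higher were 0, against 0.727%. The interval of 1 member lay wholly above equality, against 2.89%. In AF357425-Low the median was -0.88, against -1.79 for the background. Called lower were 89 members (36.0%), against 66.1%, and 1 was called higher, against 1.02%. Beyond 1.5-fold 3 were higher, against 2.1%. The interval lay wholly above equality for 19 members, against 5.7%, and wholly below for 186, against 89.6%. Over both states, 86 members (34.8%) were called lower in each, against 64.2%, and 0 were called higher in each, against 0.488%.

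Zfp81 was the member called higher, in AF357425-Low, with a pulldown over whole-cell ratio of 1.59 (1.38 to 1.82). In AF357425-High its ratio was -0.08 (-0.31 to 0.15). Ratios above 0 in AF357425-Low and below 0 in AF357425-High were found for 31 members (12.6%), against 4.73% of the background. Among them were Zfp709 at 0.96 (0.76 to 1.16) in AF357425-Low and -0.94 (-1.19 to -0.71) in AF357425-High, and Zfp654, named after its values were seen, at 0.87 (0.71 to 1.04) and -0.21 (-0.38 to -0.03). Above 0 in AF357425-High were Zfp229, at 0.23 (-0.02 to 0.48), and Zfp365, at 0.12 (0.01 to 0.23). These signs are for library totals, and other scalings move all ratios of a state up together: with TMM the medians of the members were 0.34 in AF357425-High and 0.78 in AF357425-Low, and without mitochondrial ribosomal RNA in the totals they were -0.26 and 0.44. Each scaling adds the same amount to every ratio of a state. The members' median therefore stayed above that of all genes by construction, and this is no check of that difference.

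The 8 members lowest in the pulldown in both states were Zfp428, Zfp213, Zfp593, Zfp692, Zfp219, Zfp771, Zfp90 and Zfp787. Zfp219, a partner of Sox9 in cartilage cells, had 24 and 52 reads in the AF357425-High and AF357425-Low pulldowns and 944 and 1124 in whole-cell RNA, with ratios of -5.53 and -4.79. Zfp771 had 21 and 23 pulldown reads and 529 and 487 whole-cell reads, with ratios of -4.88 and -4.76. Zfp593 had 7 and 8 pulldown reads and 304 and 256 whole-cell reads, with ratios of -5.67 and -5.36. The pulldown held few reads of each in either state. Zfp213 had 1 and 7 pulldown reads and Zfp428 had 3 and 1, against 223 and 245 and 116 and 99 whole-cell reads, and their intervals span several log2 units. Zfp692, Zfp90 and Zfp787 had ratios between -4.94 and -4.34. Across members, Spearman's rho between the ratios of the states was 0.80, and that between span and the AF357425-Low ratio was 0.249, against 0.297 across the background.

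**Figure D4:**
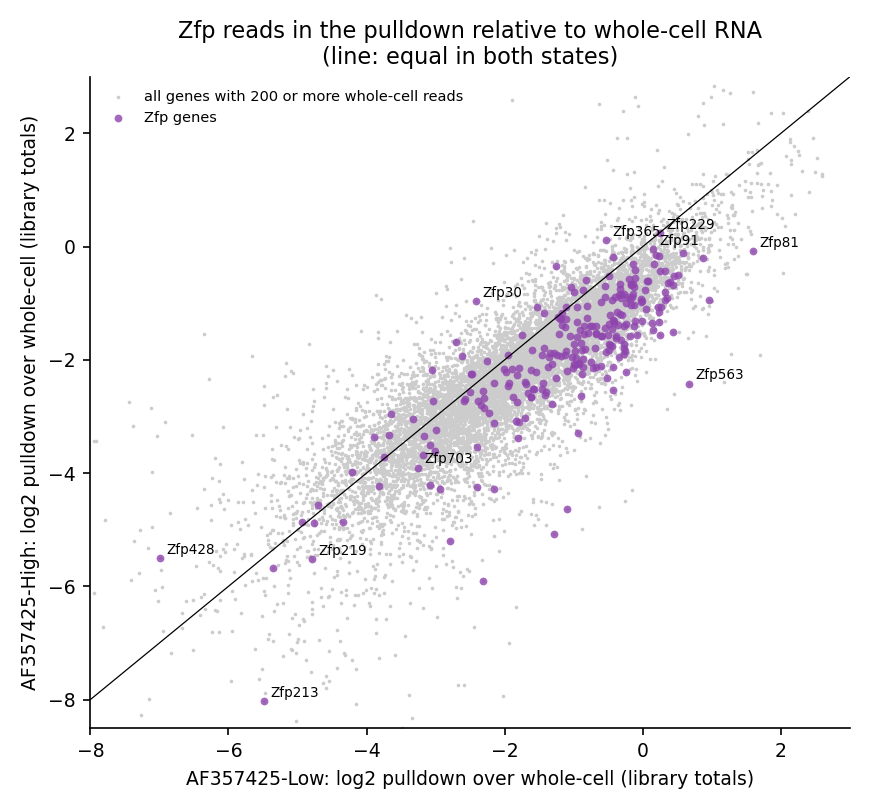
Log2 ratio of pulldown over whole-cell RNA in AF357425-High (y axis) against that in AF357425-Low (x axis) for the Zfp genes and the background genes, scaled by library totals. Zfp213 lies lowest in AF357425-High and Zfp428 in AF357425-Low, and Zfp81 lies farthest right at 1.59, while its AF357425-High value is -0.08.

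Positions grouped 86 members into 10 clusters of at least 5 members with gaps of at most 500 kb, and 160 members with a position lay outside. The medians were 0.16 in whole-cell RNA and -0.17 in pulldown RNA inside the clusters, and 0.13 and -0.26 outside. The largest cluster, chr17:21008941-23564226, held 20 members with a median whole-cell ratio of 0.30, of which 18 were above 0 and 11 had their interval wholly above equality, and its pulldown median was -0.04. The cluster chr13:67225137-67729178 had 6 members, all above 0 in whole-cell RNA, with a median of 0.34.

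The cluster chr17:32765496-33631716, with Zfp871, Zfp799, Zfp870, Zfp952, Zfp563, Zfp81, Zfp101 and Zfp414, had the lowest pulldown median, -0.83, and a whole-cell median of 0.21. The first 6 in that order were below 0 in the pulldown with their interval wholly below equality, and Zfp101, with 98 and 88 reads in the AF357425-High and AF357425-Low pulldowns, had 0.57 (0.14 to 1.00). Zfp414 had 17 reads in each pulldown. Neighbours lay on both sides in chr7:29768552-30169775, where 11 members had a pulldown median of -0.17, with 4 wholly above and 5 wholly below equality. There Zfp30 at 1.72 and Zfp420, a repressor of p53 targets, at 1.19 (0.78 to 1.61; 136 and 79 reads in the AF357425-High and AF357425-Low pulldowns) lay within the same 0.401 Mb as Zfp790 at -0.78 (-1.14 to -0.42) and Zfp568 at -0.77. In chr9:20345136-20605404 all 5 members were below 0 in the pulldown, and in chr6:47835633-48621548 the 8 members had the lowest pulldown over whole-cell medians of the clusters, -3.07 in AF357425-High and -2.38 in AF357425-Low.

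**Figure D5:**
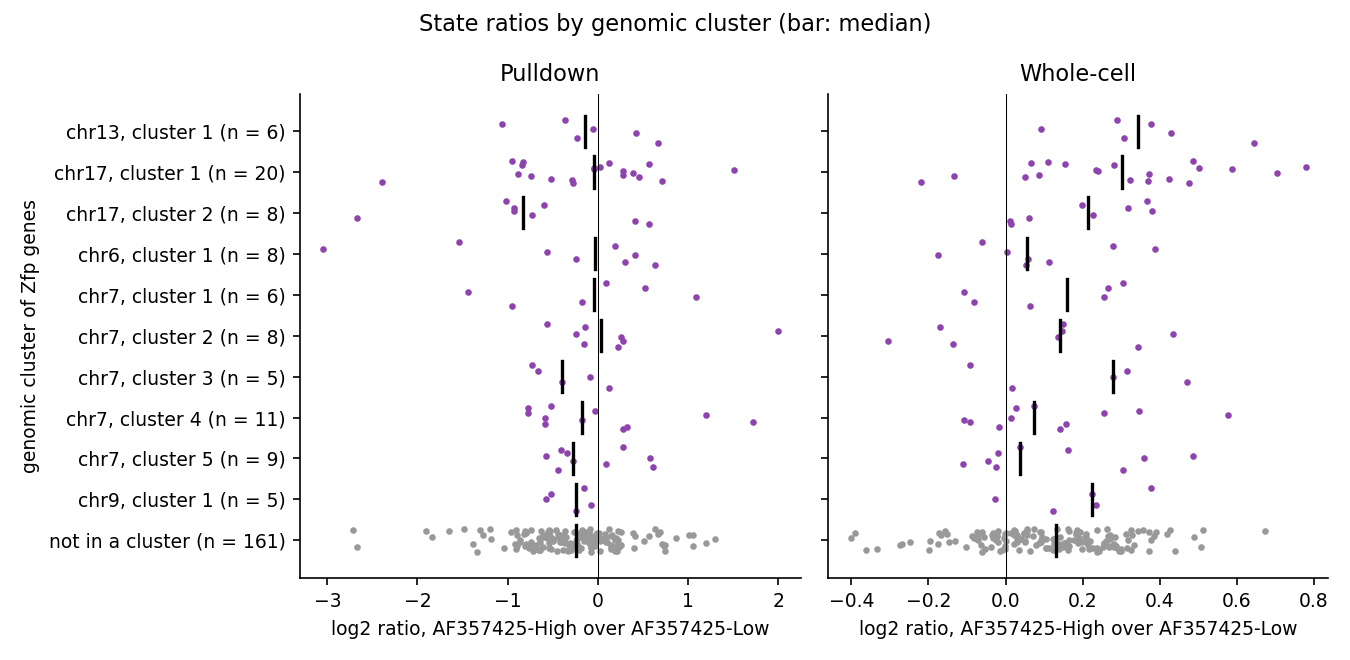
Log2 ratio of AF357425-High over AF357425-Low for members of each cluster in the pulldown (left) and in whole-cell RNA (right), 1 point per gene with the median marked, and for the 161 members not in a cluster (1 of them without a position). The cluster of Zfp563 and Zfp81 (chr17, cluster 2) is the lowest in the pulldown, at a median of -0.83, and is above 0 in whole-cell RNA, at 0.21.

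The lists by role were small and held no member called in a state comparison, and Zfp932 was the 1 listed member whose change was called. The RNA-binding and RNA-processing members had medians of 0.03 in whole-cell RNA and -0.07 in pulldown RNA over 8 genes. Zfp36 (tristetraprolin, which speeds the decay of messages with AU-rich elements) had 482 and 588 reads in the AF357425-High and AF357425-Low pulldowns and 2191 and 2047 in whole-cell RNA, with ratios of 0.12 (-0.05 to 0.30) and 0.02 (-0.07 to 0.10). Zfp207, a spindle protein that binds Bub3, had 1566 and 1877 pulldown reads and 3480 and 3292 whole-cell reads. Zfp638, a nuclear RNA- and DNA-binding protein, had 2118 and 3717 pulldown reads and 2446 and 2316 whole-cell reads, a pulldown ratio of -0.40 (-0.48 to -0.32). Zfp830 had 103 and 238 pulldown reads, a ratio of -0.80 (-1.15 to -0.46), the lowest pulldown ratio in that list, and Zfp326, which links RNA polymerase II to splicing in human cells, had 0.29 (0.13 to 0.45) in whole-cell RNA. Zfp346 and Zfp622 had pulldown ratios of -0.24 (-0.52 to 0.03) and -0.11 (-0.41 to 0.19).

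Of 8 listed genes of imprinting, retroelement or germline silencing, 4 were members, with medians of 0.29 in whole-cell RNA and -0.47 in pulldown RNA. All 4 were above 0 in the first and below 0 in the second, a pair of signs found for 53.0% of all members. The interval lay wholly above equality in whole-cell RNA for 2 of them and wholly below it in the pulldown for 2. Zfp568, which represses the placental promoter of Igf2 in mice, had 300 and 681 reads in the AF357425-High and AF357425-Low pulldowns, a ratio of -0.77 (-0.97 to -0.57), and 764 and 604 in whole-cell RNA, a ratio of 0.26 (0.10 to 0.41). Zfp809, which silences murine retroviruses, had 563 and 762 pulldown reads and 702 and 641 whole-cell reads, with ratios of -0.03 (-0.19 to 0.13) and 0.05 (-0.11 to 0.21). Zfp961 had 74 and 111 pulldown reads and 183 and 138 whole-cell reads, with ratios of -0.17 (-0.62 to 0.26) and 0.32 (-0.00 to 0.65). Zfp932, whose reads and called change are given above, had the lowest pulldown ratio of the list, -1.65 (-2.37 to -0.98), and a whole-cell ratio of 0.34 (0.02 to 0.66). Under the floor lay Zfp37, with 57 and 39 whole-cell reads, Zfp57, an imprint keeper with 3 and 4, and Zfp42 (Rex1) and Zfp708, with 0 in all 4 libraries. Zfp445, another imprint keeper, outside the list and named after its values were seen, had ratios of -0.04 (-0.17 to 0.10) in the pulldown and 0.16 (0.06 to 0.26) in whole-cell RNA.

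Of 8 listed mesenchymal and adipogenic regulators, 7 were members, with medians of -0.09 in whole-cell RNA and -0.24 in pulldown RNA. Zfp423, which commits cells to the fat lineage, fell under the floor with 65 and 72 whole-cell reads. Zfp395 had 63 and 219 reads in the AF357425-High and AF357425-Low pulldowns and 159 and 181 in whole-cell RNA, with a pulldown ratio of -1.39 (-1.81 to -0.98). That interval just reached within 2-fold. Zfp516, a factor of brown fat, had 560 and 1047 pulldown reads and a ratio of -0.49 (-0.64 to -0.34), and Zfp521, an inhibitor of fat cell formation, had 1532 and 2404 and a ratio of -0.24 (-0.33 to -0.15). Zfp703 and Zfp503, co-repressors of one family, had -0.37 (-0.58 to -0.17) and 0.10 (-0.09 to 0.29), and Zfp467, which favours fat over bone cells, had 20 reads in each pulldown and a ratio of 0.41 (-0.56 to 1.38). Zfp365, described above, was the member of this list with its pulldown interval wholly above equality, at 0.74 (0.63 to 0.86).

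The 16 general transcription factors and chromatin partners had medians of 0.06 in whole-cell RNA and -0.09 in pulldown RNA. Zfp318 had 609 and 1513 reads in the AF357425-High and AF357425-Low pulldowns and 997 and 943 in whole-cell RNA, with ratios of -0.90 (-1.04 to -0.77) and -0.00 (-0.13 to 0.13). Zfp148 had 1089 and 2278 pulldown reads and 2553 and 2425 whole-cell reads, with ratios of -0.65 (-0.76 to -0.55) and -0.01 (-0.09 to 0.07). In both genes the states differed in the pulldown and were close in whole-cell RNA. Zfp335 had a pulldown ratio of -0.81 (-1.23 to -0.40) and Zfp687 one of 0.57 (0.22 to 0.93). Zfp281, a regulator of pluripotency, had a whole-cell ratio of 0.28 (0.15 to 0.41), and Zfp292 had 0.25 (0.16 to 0.35). Zfp143 itself, whose element is described with the promoters, had 78 and 136 pulldown reads and 422 and 389 whole-cell reads, with ratios of -0.39 (-0.81 to 0.02) and 0.03 (-0.17 to 0.24). Zfp91, a ubiquitin ligase, had 3987 and 4422 pulldown reads and 3513 and 3111 whole-cell reads. The pulldown ratios of Zfp217, Zfp263, Zfp367, Zfp384, Zfp532, Zfp592, Zfp644 and Zfp462 lay between -0.42 and 0.23.

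Of the 30 promoter-motif members, 24 were above 0 in whole-cell RNA and 16 were below 0 in the pulldown. Their medians were 0.15 in whole-cell RNA and -0.04 in pulldown RNA, against 0.13 and -0.23 for the members with a window and no match.

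Genes that work with Zfp proteins were read from lists. The 17 genes of the KRAB co-repressor machinery had medians of 0.06 in whole-cell RNA and -0.15 in pulldown RNA with none called, and Trim28 had 483 and 782 reads in the AF357425-High and AF357425-Low pulldowns and 5195 and 4523 in whole-cell RNA. The 4 genes of the HUSH complex, a silencer of retroelements, had medians of -0.10 and -0.60 with none called, and all 4 were below 0 in the pulldown. The medians of other zinc finger families had the members' signs in whole-cell and pulldown RNA, with mixed genes within families. They were 0.09 and -0.27 for 30 Zbtb genes, 0.06 and -0.29 for 15 Zscan and Zkscan genes and 0.14 and -0.11 for 12 Klf genes. The 17 Zc3h genes had 0.02 and -0.15, and the 19 Zfp genes with a letter after the number 0.07 and -0.13. In that order 20, 11, 8, 10 and 15 genes were above 0 in whole-cell RNA, against 49.9% of the background. Below 0 in the pulldown were 21, 10, 7, 12 and 12, against 50.5%. The pulldown intervals of 4 Klf genes lay wholly above equality and of 4 wholly below, and of 5 and 7 Zc3h genes. Called lower in the pulldown were Zbtb39 and Zbtb2 of the 30 Zbtb genes and Zkscan7 of the 15 Zscan and Zkscan genes. So were Zc3h12a and Zc3h3 of the 17 Zc3h genes and Zfp955a of the 19 lettered Zfp genes, against 2.3% of the background. Of these, Zc3h3 had only 8 and 48 reads in the AF357425-High and AF357425-Low pulldowns, Zc3h12a 20 and 93 and Zkscan7 23 and 107. Called higher was Zc3hav1, an antiviral protein, at 1.15 (1.06 to 1.23), against 2.44% of the background.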

How the data were processed

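The authors deposited read counts per gene for a pair of whole-cell and a pair of pulldown libraries. Per the submitters' processing notes, cutadapt 2.4, STAR 2.6.0c, HTSeq 0.9.1 and StringTie 1.3.4 were used with GRCm38; neither annotation nor strand setting is given in the sources used here. HTSeq summary lines, which held 50.0% and 45.4% of fragments in the AF357425-High and AF357425-Low pulldowns and 45.0% and 43.8% in whole-cell RNA, were left out. Ambiguous reads were 9.38% and 8.54% of pulldown and 1.05% and 1.09% of whole-cell fragments.

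Samples were grouped by title. States were compared with TMM scaling (edgeR 4.0.16, on genes averaging 1 CPM or more), and pulldown with whole-cell RNA by library totals. No test was possible with 1 library per group. Intervals are exact (Clopper-Pearson, 95%), or, for the change, log-scale normal approximations (at least 10 reads in each library). A call needs the whole interval beyond 2-fold. Alternatives were other scalings (totals, DESeq2 1.42.0 size factors, totals without mitochondrial ribosomal RNA), floors and call lines. Scripts were tested on simulated data. Named were called members, the 8 with most whole-cell reads, the 8 lowest in the pulldown in both states, role lists and members at the floor. Members and lists were chosen with earlier results of these data known. A split by KRAB box and finger number was not analysed here. A listed gene is not reported here.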

Additional observations from a re-analysis of the deposited data

Results flagged for a closer look

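For 5 members the AF357425-High over AF357425-Low ratio was above equality in whole-cell RNA and below it in the pulldown, each with its whole counting interval, and the change between them was called. The changes, as differences of log2 ratios, were -1.31 for Zfp81, -1.54 for Zfp709, -1.99 for Zfp932, -1.74 for Zfp970 and -1.44 for Zfp748. With 1 library in each group the difference was not tested against the spread between cultures.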

How the results depend on the processing

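Scaling by library totals shifted all genes by -0.30 in pulldown and 0.06 in whole-cell ratios, relative to TMM. The whole-cell median of the members was then 0.19 (0.20 without mitochondrial ribosomal RNA), and the pulldown median -0.54 with 0 called higher and 17 lower, against 1.35% and 4.97% of all genes (-0.40, 0 and 10 without that RNA, against 1.75% and 3.48%). The change had a median of -0.73 with 0 higher and 25 lower (10.5%), against 0.92% and 4.88% of all genes. Zfp820 (1.21 and, without that RNA, 1.35) and Zfp30 (1.42 and 1.56) were then not called. A sum of at least 500 whole-cell reads left 158 members, with 0 higher and 2 lower in the pulldown (against 1.76% and 1.61% of all genes) and a whole-cell median 0.10 above that of all genes. At least 1 read in each table gave 5 higher and 11 lower in the pulldown over 334 members (1.5% and 3.29%, against 4.13% and 3.48%). The line of 1.5-fold gave 8 higher and 21 lower in the pulldown, 5 and 31 for the change, and 3 higher for pulldown over whole-cell RNA in AF357425-Low. The 161 members with no overlapping gene had 1 higher and 3 lower in the pulldown (against 2.28% and 2.24% of all such genes), and 105 and 51 lower (65.2% and 31.7%, against 77.8% and 65.7%) for pulldown over whole-cell RNA in AF357425-High and AF357425-Low. The sign of pulldown over whole-cell RNA depends on the scaling: TMM gave medians of 0.34 in AF357425-High (38 higher, 24 lower, or 15.4% and 9.72%, against 14.7% and 19.3% of all genes) and 0.78 in AF357425-Low (79 and 25, or 32.0% and 10.1%, against 15.9% and 22.9%), and totals without mitochondrial ribosomal RNA gave -0.26 (7 higher, 40 lower, or 2.83% and 16.2%, against 5.88% and 34.2%) and 0.44 (38 and 26, or 15.4% and 10.5%, against 9.72% and 30.1%). Leaving that RNA out adds 1.45 and 1.31 to every such ratio. A line at equality, added after the data were seen, gave 37 higher and 111 lower in the pulldown, 90 and 7 in whole-cell RNA, 28 and 128 for the change, 1 higher for pulldown over whole-cell RNA in AF357425-High, and 19 higher and 186 lower in AF357425-Low. The median of the members minus that of all genes (-0.23 in the pulldown, 0.14 in whole-cell RNA, 0.46 and 0.92 for pulldown over whole-cell RNA in AF357425-High and AF357425-Low) moved past its tolerance only with the floor of 500. No scaling can move this difference, so only the floors and the overlap setting could test it. Of 172 alternatives, 122 left the value on its side and within its tolerance. These 122 include the scalings that could not move that difference. No paired analysis was possible because each group has 1 library. Depth limits members with few pulldown reads: 23 and 14 had under 30 in AF357425-High and AF357425-Low.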
